A study of Homo sapiens with 6 samples.

Results

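Plasmin, the protease that dissolves fibrin clots and cuts matrix proteins, and thrombin, the protease that makes fibrin, are each controlled by a small set of activators, receptors and inhibitors that many cells make themselves. Expression of 9 such genes was compared in growing and senescent fibroblasts. These genes were the plasminogen activators PLAU and PLAT, the urokinase receptor PLAUR and the protease inhibitors SERPINE2 and SERPINB2. The others were the coagulation starter F3, its inhibitor TFPI, the related TFPI2 and the thrombin-binding cofactor THBD. A probe set was taken where the platform table gives 1 of the 9 symbols as its gene. This found 19 of the 54613 probe sets in the table, for 8 of the 9 genes, and SERPINB2 was not analysed here because no probe set carries that name. Of the 19 probe sets, 18 passed the filter on dim signals, which asked for 2 or more of the 6 arrays to exceed their median signal.

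The cells were IMR90, human lung fibroblasts of 1 strain, carrying a 4-hydroxytamoxifen (4-OHT) inducible ER:Ras, an oncogenic Ras fused to the hormone-binding part of the estrogen receptor. Each of 3 states had 2 biological replicates, and each replicate was 1 array. Growing cells received neither 4-OHT nor siRNA. Ctrl-KD OIS cells, in oncogene-induced senescence, received 100 nM 4-OHT for 6 days and a control siRNA against luciferase 4 days before RNA was taken. RB-KD OIS cells received the same 4-OHT and a mixture of siRNAs against RB1, the gene of the retinoblastoma protein. Effects of Ras, 4-OHT and transfection thus cannot be told apart in a comparison with growing cells, whereas the comparison of the OIS states differs by the siRNA alone. The authors report that the RB1 knockdown partly restored DNA replication and moderately lowered the share of cells with senescence-associated heterochromatin foci. The 2 OIS states are thus not equally senescent.

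Urokinase (PLAU) and tissue-type plasminogen activator (PLAT) cut plasminogen into plasmin, and urokinase bound to its receptor does so at the cell surface. Tissue factor (F3) binds factor VII and starts coagulation, TFPI blocks that step, and thrombomodulin (THBD) turns thrombin from clotting toward activation of protein C. Senescent fibroblasts are known to secrete proteases and protease inhibitors of this kind along with cytokines.

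RB1 itself was low in RB-KD OIS cells, at 222 and 228 against 2578 and 1914 on the Ctrl-KD OIS arrays (signals of probe set 203132_at). All 8 fibroblast markers were over the array median on all 6 arrays, with summed signals of 196312 to 197082 in growing, 120799 to 121209 in Ctrl-KD OIS and 138480 to 166667 in RB-KD OIS cells. The endothelial markers CDH5, KDR and ESAM were under the median on every array, and so were 5 of 7 monocyte or macrophage, 4 of 5 epithelial and 3 of 5 hepatocyte markers. Of 5 megakaryocyte or platelet markers, 0 were under it on every array. GP1BA (53.2 to 91.9) and PF4 (50.8 to 151.8) of that list were over it on all 6 arrays. So was the monocyte or macrophage marker CSF1R (74.9 to 158.4). The epithelial marker EPCAM was over it on 2 growing, 1 Ctrl-KD OIS and 2 RB-KD OIS arrays. Array medians lay between 46 and 51.8. In these bulk cultures, fewer cells of a type and less RNA per cell cannot be told apart.

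The promoters of 3 members are shown because these measured genes differ in profile across the states and each holds a match to AP-1, the site of Fos and Jun factors. They are the 250 bases before the RefSeq start site on GRCh38.p14, 5′ to 3′ on the strand of the gene, at chr19:43670170-43670419 (minus strand) for PLAUR, chr7:93890754-93891003 (minus strand) for TFPI2 and chr1:94541760-94542009 (minus strand) for F3. Capitals mark matches on either strand to AP-1 (TGANTCA), to the kB consensus of NF-kB and to the TATA box (TATAAA).
PLAUR: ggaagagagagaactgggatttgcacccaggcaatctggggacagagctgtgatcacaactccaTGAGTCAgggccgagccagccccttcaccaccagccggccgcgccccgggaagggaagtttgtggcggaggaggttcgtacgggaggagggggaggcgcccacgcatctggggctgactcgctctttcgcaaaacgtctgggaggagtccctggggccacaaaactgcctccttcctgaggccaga
TFPI2: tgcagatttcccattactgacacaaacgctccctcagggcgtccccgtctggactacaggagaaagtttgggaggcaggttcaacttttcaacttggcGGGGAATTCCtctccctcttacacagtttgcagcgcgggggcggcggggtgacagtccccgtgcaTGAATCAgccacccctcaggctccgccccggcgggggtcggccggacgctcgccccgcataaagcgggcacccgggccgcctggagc
F3: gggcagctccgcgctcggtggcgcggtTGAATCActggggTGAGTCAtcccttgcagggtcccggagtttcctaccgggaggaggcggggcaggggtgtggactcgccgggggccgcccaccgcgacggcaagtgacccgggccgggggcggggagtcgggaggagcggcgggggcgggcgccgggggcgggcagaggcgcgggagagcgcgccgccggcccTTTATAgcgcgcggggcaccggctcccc

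In PLAUR the AP-1 match begins 186 bases before the start site. In TFPI2 an AP-1 match begins at 87 bases and the single kB match among the members at 152 bases. In F3, 2 AP-1 matches begin at 223 and 210 bases and a TATA match at 28 bases. Over the 9 promoter entries found for 7 of the 9 genes, 4 held an AP-1 match (PLAUR, TFPI2, F3 and SERPINB2), 1 a kB match, 2 a TATA match (F3 and SERPINB2), 5 an SP1 match (GGGCGG) and 0 an E2F match (TTCCCGC). Among all 35116 promoters of the same length, 6.57% held AP-1, 5.21% the kB consensus, 10.7% TATA, 42.6% SP1 and 5.52% E2F. No AP-1 match lay in the PLAU entries. These are matches of letters, and binding was not measured.

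The genes did not move as a block. Against growing cells, Ctrl-KD OIS cells had higher signals of PLAU, PLAUR, TFPI2 and THBD and a lower signal of TFPI, whereas PLAT, F3 and SERPINE2 did not pass the test. Counting each gene by its brightest probe set, 4 of the 8 genes were thus higher and 1 was lower, where 19.9% of all 13398 genes tested were higher and 20.7% were lower. THBD, under the median in growing cells, passed the filter on dim signals through its OIS arrays alone. Its direction against growing cells was thus largely set by the filter. The call on TFPI did not hold when all its probe sets were averaged, and without an intensity trend in the prior variance it was just missed (adjusted p = 0.0547), which leaves 0 lower genes under both settings. PLAT, at a log2 fold change of -0.39, was called lower as a second gene without Ctrl-KD OIS replicate 1 (adjusted p = 0.0393). The median log2 fold change of the 8 genes was 0.33, against -0.01 for all genes.

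In RB-KD OIS cells, 6 of the 8 genes were higher than in growing cells (PLAU, PLAUR, PLAT, F3, TFPI2 and THBD) and 0 were lower, against 18.0% higher and 18.4% lower among all genes. The median log2 fold change of the 8 genes was 0.98, against -0.02 for all genes. Of the 6, THBD again passed the filter through its OIS arrays alone. At an unadjusted p below 0.05 the count of lower genes was also 0, and it was 0 in every alternative run.

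Between the OIS states, PLAT, PLAUR, F3 and TFPI were higher in RB-KD OIS cells and THBD was lower, which makes 4 and 1 of 8 genes beside 11.6% and 10.3% of all genes. The median log2 fold change was 0.37, against -0.02 for all genes. These 4 higher calls rest on the spread that limma borrows from probe sets of like signal: without the intensity trend none passed (adjusted p = 0.071 for PLAT, 0.0781 for PLAUR, 0.119 for TFPI and 0.125 for F3), while THBD did (adjusted p = 0.045). Without RB-KD OIS replicate 1, 2 of the 4 were left, as F3 (adjusted p = 0.0727) and TFPI (adjusted p = 0.0553) were lost.

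**Figure D1:**
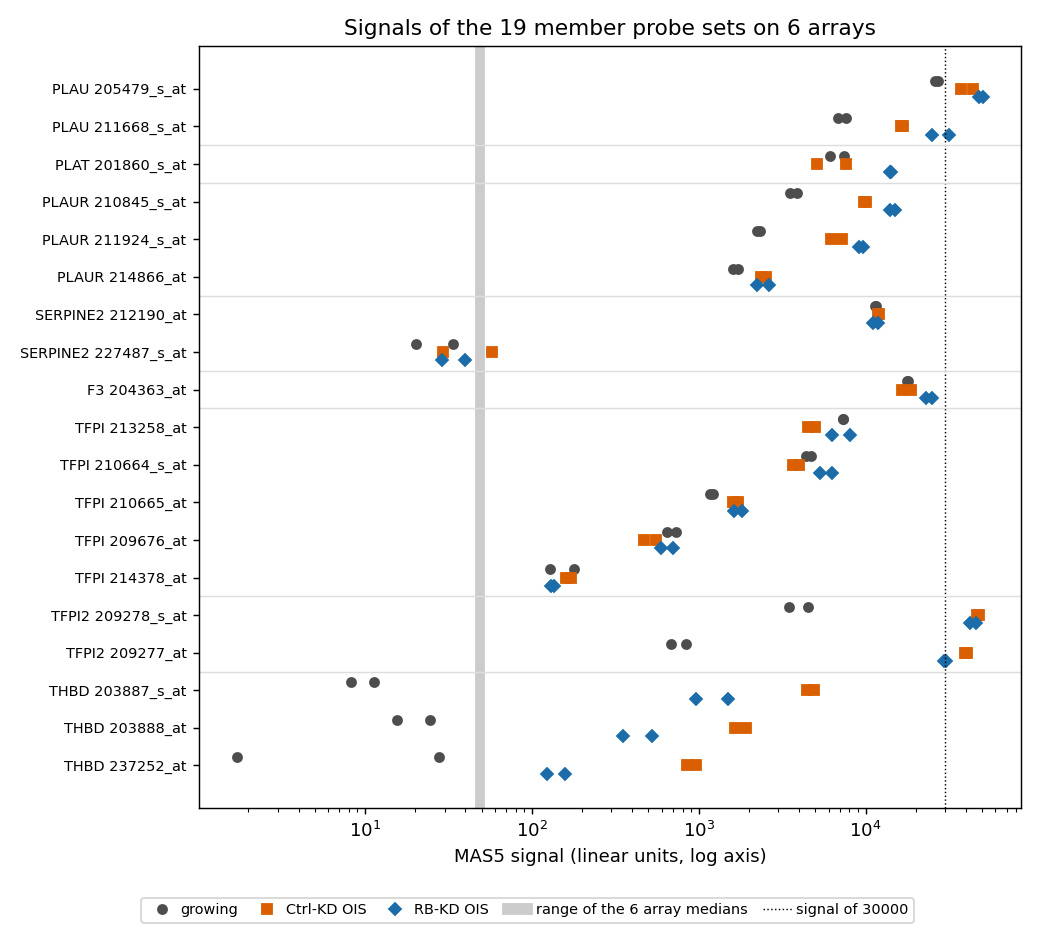
MAS5 signal (linear units on a log axis) of the 19 probe sets on each of the 6 arrays, as circles for growing, squares for Ctrl-KD OIS and diamonds for RB-KD OIS cells, with the range of the array medians (46 to 51.8) as a grey band and a signal of 30000 as a dotted line. The 3 THBD probe sets lie left of the band in growing cells and right of it in both OIS states, and both TFPI2 probe sets lie near or over 30000 in the OIS states.

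PLAU encodes urokinase. Its brightest probe set (205479_s_at) gave signals of 27191 and 25911 on the growing arrays, 37176 and 43906.5 on the Ctrl-KD OIS arrays and 50671 and 47958 on the RB-KD OIS arrays. The states did not overlap, in the order growing, Ctrl-KD OIS, RB-KD OIS. Against growing cells the log2 fold change was 0.61 (SE 0.09, BH-adjusted p = 0.000688 by limma, BH standing for Benjamini-Hochberg here and throughout) in Ctrl-KD OIS and 0.89 (BH-adjusted p = 8.49e-05) in RB-KD OIS cells, which is 1.52-fold and 1.86-fold. The step between the OIS states, 0.29 (95% interval of the fold 1.06 to 1.41), missed the threshold (BH-adjusted p = 0.0605). It passed without Ctrl-KD OIS replicate 2 (0.41, BH-adjusted p = 0.00922) and with median centring (BH-adjusted p = 0.0271).

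The other PLAU probe set (211668_s_at) gave 7589.6 and 6791 in growing, 16776 and 16284 in Ctrl-KD OIS and 31819 and 25151 in RB-KD OIS cells. Here too the states kept the same order with no overlap. The log2 fold changes were larger, at 1.20 (SE 0.11, BH-adjusted p = 3.53e-05), 1.98 (BH-adjusted p = 2.16e-06) and, between the OIS states, 0.78 (BH-adjusted p = 0.00182). The last of these was lost without the intensity trend (BH-adjusted p = 0.076). The OIS signals of the brightest probe set were all over 30000, close to the top of the range (the highest signal of an array was 54242 to 64701), so the size of its change is uncertain.

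PLAUR, the receptor that holds urokinase at the cell surface, was higher in both OIS states too. Probe set 210845_s_at gave 3860.1 and 3510.2 in growing, 9796.5 and 10086 in Ctrl-KD OIS and 14059 and 15033 in RB-KD OIS cells, again with no overlap between states. The log2 fold change was 1.43 (SE 0.09, BH-adjusted p = 2.03e-06) in Ctrl-KD OIS and 1.98 (BH-adjusted p = 3.82e-07) in RB-KD OIS cells against growing cells, or 2.70-fold and 3.95-fold. RB-KD OIS exceeded Ctrl-KD OIS cells by 0.55 (BH-adjusted p = 0.00255), or 1.46-fold.

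A second PLAUR probe set (211924_s_at) gave 2245 and 2323 in growing, 6187 and 7184 in Ctrl-KD OIS and 9719 and 9174 in RB-KD OIS cells, with log2 fold changes of 1.55, 2.05 and 0.50 (BH-adjusted p = 2.65e-06, 6.46e-07 and 0.00705). Its difference between the OIS states was lost without RB-KD OIS replicate 1 (BH-adjusted p = 0.0598) and without the intensity trend (BH-adjusted p = 0.105). The third (214866_at) separated only the growing cells, at 1712 and 1606 against 2356 and 2535 in Ctrl-KD OIS and 2236 and 2645 in RB-KD OIS cells, whose ranges overlapped. It was higher by 0.56 and 0.55 against growing cells (BH-adjusted p = 0.00361 and 0.00462, the latter 0.0564 without the intensity trend), and between the OIS states the fold was within 0.837 to 1.18 (95% interval, BH-adjusted p = 0.977).

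PLAT, the activator best known from the blood vessel wall, had another profile than PLAU. The signals of 201860_s_at were 7441 and 6088 in growing, 7598 and 5130.1 in Ctrl-KD OIS and 14042 and 14130.4 in RB-KD OIS cells. Growing and Ctrl-KD OIS cells overlapped, and both RB-KD OIS arrays lay above the other 4 arrays. PLAT was 2.09-fold higher than in growing cells (log2 1.07, SE 0.17, BH-adjusted p = 0.00107) and 2.26-fold higher than in Ctrl-KD OIS cells (1.17, BH-adjusted p = 0.00152). For Ctrl-KD OIS against growing cells the fold was 0.717 to 1.20 (95% interval, BH-adjusted p = 0.663), and the difference, -0.11, turned to 0.17 without Ctrl-KD OIS replicate 2.

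SERPINE2, protease nexin 1, an inhibitor of thrombin, urokinase and tissue-type plasminogen activator, showed no difference that passed. Its signals (212190_at) were 11591 and 11415 in growing, 12007 and 11829.9 in Ctrl-KD OIS and 11865 and 11157 in RB-KD OIS cells, and the range of the RB-KD OIS arrays overlapped both others. The 95% intervals of the fold were 0.920 to 1.17 for Ctrl-KD OIS and 0.888 to 1.13 for RB-KD OIS against growing cells and 0.857 to 1.09 between the OIS states. A second probe set (227487_s_at) was dim, at 20.3 to 57.7 over the 6 arrays, and was not tested.

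F3, tissue factor, gave signals (204363_at) of 17826.5 and 17866 in growing, 18794 and 16543 in Ctrl-KD OIS and 25182 and 22874 in RB-KD OIS cells. The Ctrl-KD OIS range enclosed the growing arrays, and the RB-KD OIS arrays lay above all others. F3 was 1.34-fold higher than in growing cells (log2 0.43, SE 0.09, BH-adjusted p = 0.00531) and 1.36-fold higher than in Ctrl-KD OIS cells (0.44, BH-adjusted p = 0.00851). The former call was lost without growing replicate 1 (BH-adjusted p = 0.0528) or 2 (BH-adjusted p = 0.0513) and without the intensity trend (BH-adjusted p = 0.083). For Ctrl-KD OIS against growing cells the fold was 0.861 to 1.13 (95% interval, BH-adjusted p = 0.903).

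**Figure D2:**
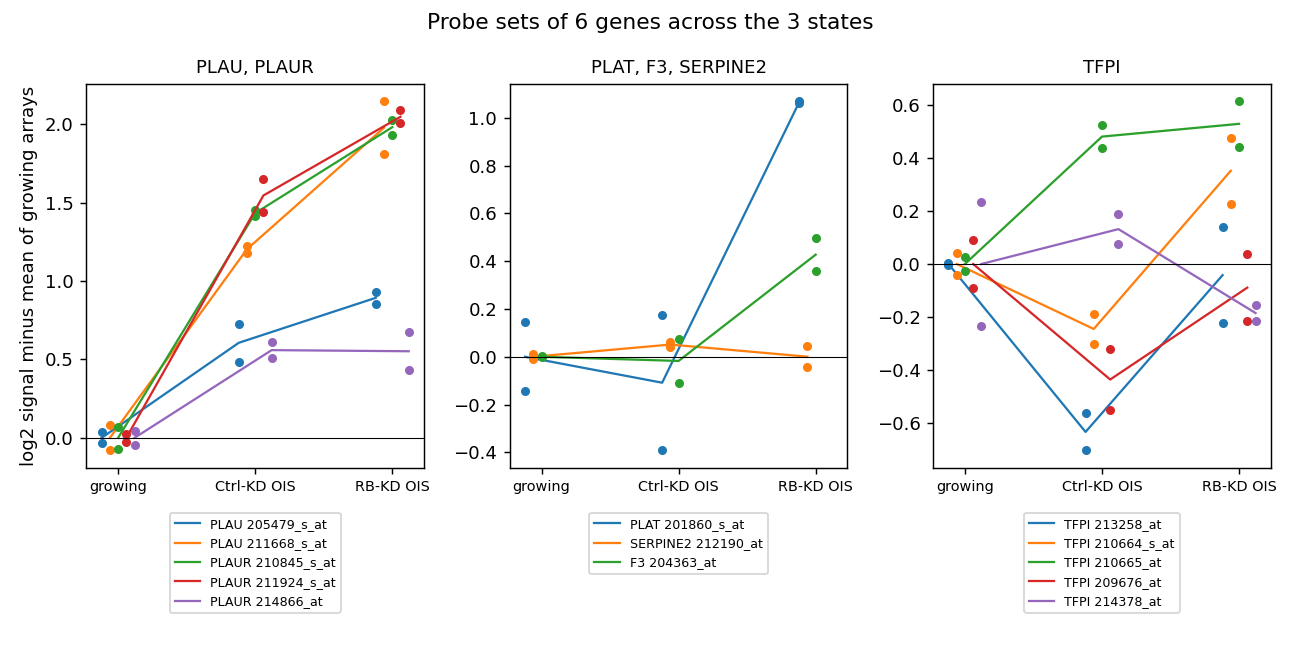
Log2 signal of each array minus the mean of the growing arrays (points), with the mean of each state joined by lines, for the probe sets of PLAU and PLAUR (left), PLAT, F3 and SERPINE2 (middle) and TFPI (right), on vertical scales that differ by panel. All probe sets of PLAU and PLAUR lie above the growing arrays in both OIS states, PLAT and F3 pass the test against growing cells in RB-KD OIS cells alone, and the 5 TFPI probe sets go different ways.

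The 5 probe sets of TFPI, the inhibitor of tissue factor and factor Xa, disagreed. The brightest (213258_at) gave 7348 and 7309 in growing, 4954 and 4497 in Ctrl-KD OIS and 8067 and 6279.8 in RB-KD OIS cells. It was 1.55-fold lower in Ctrl-KD OIS than growing cells (log2 -0.63, SE 0.12, BH-adjusted p = 0.00249) and 1.51-fold higher in RB-KD OIS than Ctrl-KD OIS cells (0.59, BH-adjusted p = 0.00873). The RB-KD OIS arrays lay on either side of the growing ones, with a fold of 0.808 to 1.17 (95% interval, BH-adjusted p = 0.825).

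Probe set 210664_s_at was highest in RB-KD OIS cells, at 4679 and 4409 in growing, 3985 and 3683 in Ctrl-KD OIS and 6322 and 5319.7 in RB-KD OIS cells. The OIS states differed by 0.60 (BH-adjusted p = 0.0044, but 0.0904 without the intensity trend), RB-KD OIS exceeded growing cells by 0.35 (BH-adjusted p = 0.0291), and Ctrl-KD OIS against growing cells, at -0.25, did not pass (BH-adjusted p = 0.101). The call against growing cells was lost without either growing array (BH-adjusted p = 0.0957 and 0.186), without RB-KD OIS replicate 1 (0.184) and without the intensity trend (0.148).

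Probe set 210665_at ran the other way against growing cells. It gave 1169 and 1215 there, 1715 and 1614 in Ctrl-KD OIS and 1826 and 1621 in RB-KD OIS cells, higher in both OIS states by 0.48 (BH-adjusted p = 0.0068) and 0.53 (BH-adjusted p = 0.00486) on the log2 scale. The OIS states overlapped. The first of these calls was lost without growing replicate 1 (BH-adjusted p = 0.0624) and without the intensity trend (BH-adjusted p = 0.0513). TFPI messages are known to be spliced into more than one form, and which form each probe set reads was not analysed here.

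The remaining TFPI probe sets passed in no comparison. Signals of 209676_at were 733 and 648 in growing, 551 and 470.0 in Ctrl-KD OIS and 706 and 594 in RB-KD OIS cells, with -0.44 for Ctrl-KD OIS against growing cells just missing the threshold (BH-adjusted p = 0.0519). Those of 214378_at were 129 to 178 over the growing and 131 to 173 over the OIS arrays.

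TFPI2, a matrix-bound inhibitor of plasmin and other proteases, was higher in both OIS states on both its probe sets. Its brightest probe set (209278_s_at) gave 4512 and 3484 in growing, 46543.5 and 48159 in Ctrl-KD OIS and 42424 and 45862 in RB-KD OIS cells. The growing arrays lay far below the rest. The log2 fold change was 3.58 (SE 0.11, BH-adjusted p = 5.92e-08) in Ctrl-KD OIS and 3.48 (BH-adjusted p = 7.72e-08) in RB-KD OIS cells. These are 11.9-fold (95% interval 9.98 to 14.3) and 11.1-fold (95% interval 9.30 to 13.3). The OIS states did not overlap, but their difference of -0.10 did not pass (BH-adjusted p = 0.611, 95% interval of the fold 0.779 to 1.11).

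The other TFPI2 probe set (209277_at) gave 835 and 682 in growing, 39220.1 and 40494 in Ctrl-KD OIS and 30338 and 29552.5 in RB-KD OIS cells. That is 52.8-fold and 39.7-fold higher than in growing cells (log2 5.72, SE 0.10, BH-adjusted p = 1.75e-09, and 5.31, BH-adjusted p = 2.64e-09). It was 1.33-fold lower in RB-KD OIS than Ctrl-KD OIS cells (-0.41, BH-adjusted p = 0.0224), a call that was lost without any one of the 4 OIS arrays (BH-adjusted p = 0.0501 to 0.103) and without the intensity trend (0.169). With OIS signals at or near 30000 and above, the sizes on both probe sets are uncertain.

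THBD, thrombomodulin, was not above the array median in growing cells on any of its 3 probe sets and was well above it in both OIS states. The brightest (203887_s_at) gave 8.2 and 11.3 in growing, 4454 and 4931 in Ctrl-KD OIS and 968 and 1488 in RB-KD OIS cells. All 3 states were apart, with Ctrl-KD OIS the highest. Set against the array medians, THBD was at least 92.5-fold higher than in growing cells in Ctrl-KD OIS (BH-adjusted p = 1.79e-08) and at least 23.7-fold higher in RB-KD OIS cells (BH-adjusted p = 8.35e-08). These p-values test the log2 changes fitted on the signals as given (8.93 and 6.96), not the bounds. The same holds for p-values printed beside bounds below. RB-KD OIS cells had a 3.90-fold lower signal than Ctrl-KD OIS cells (log2 -1.96, SE 0.23, BH-adjusted p = 0.000631), and this call held in every alternative run, between -2.28 and -1.65.

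Probe set 203888_at had the same order, at 24.5 and 15.6 in growing, 1653 and 1933 in Ctrl-KD OIS and 352 and 524 in RB-KD OIS cells. That is at least 35.3-fold and at least 8.49-fold higher than in growing cells. Between the OIS states it was 4.16-fold lower in RB-KD OIS than Ctrl-KD OIS cells (log2 -2.06, BH-adjusted p = 0.00112). Probe set 237252_at gave 1.7 and 27.8 in growing, 856 and 958 in Ctrl-KD OIS and 123 and 158 in RB-KD OIS cells. Its rise over growing cells was at least 17.9-fold and at least 2.75-fold, and its difference between the OIS states, -2.70 (SE 0.98), missed the threshold (BH-adjusted p = 0.0956). It passed under 5 alternatives, among them an offset of 16 (-2.57, SE 0.37, BH-adjusted p = 0.00127), a fit of the OIS states alone (BH-adjusted p = 5.86e-05) and a fit without growing replicate 1 (BH-adjusted p = 0.000184) or 2 (BH-adjusted p = 0.000714).

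Thrombomodulin is best known from endothelial cells. The summed signal of the 8 endothelial markers was 1390.3 to 1469 in growing, 669.6 to 723 in Ctrl-KD OIS and 1536 to 1640 in RB-KD OIS cells. TEK made up most of that sum, at means of 1189 in growing, 339 in Ctrl-KD OIS and 1295 in RB-KD OIS cells. PECAM1, the other marker over the median on all 6 arrays, gave means of 101 in growing, 115.5 in Ctrl-KD OIS and 136 in RB-KD OIS cells. TIE1 was over the median on the 2 Ctrl-KD OIS arrays alone, with means of 19.7, 93.95 and 27.8 in the 3 states, and CLDN5 was over it on 1 Ctrl-KD OIS array. CDH5, KDR and ESAM were under it on every array, and VWF was over it on 1 array of each state. The part of these markers in the THBD result was not tested.

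**Figure D3:**
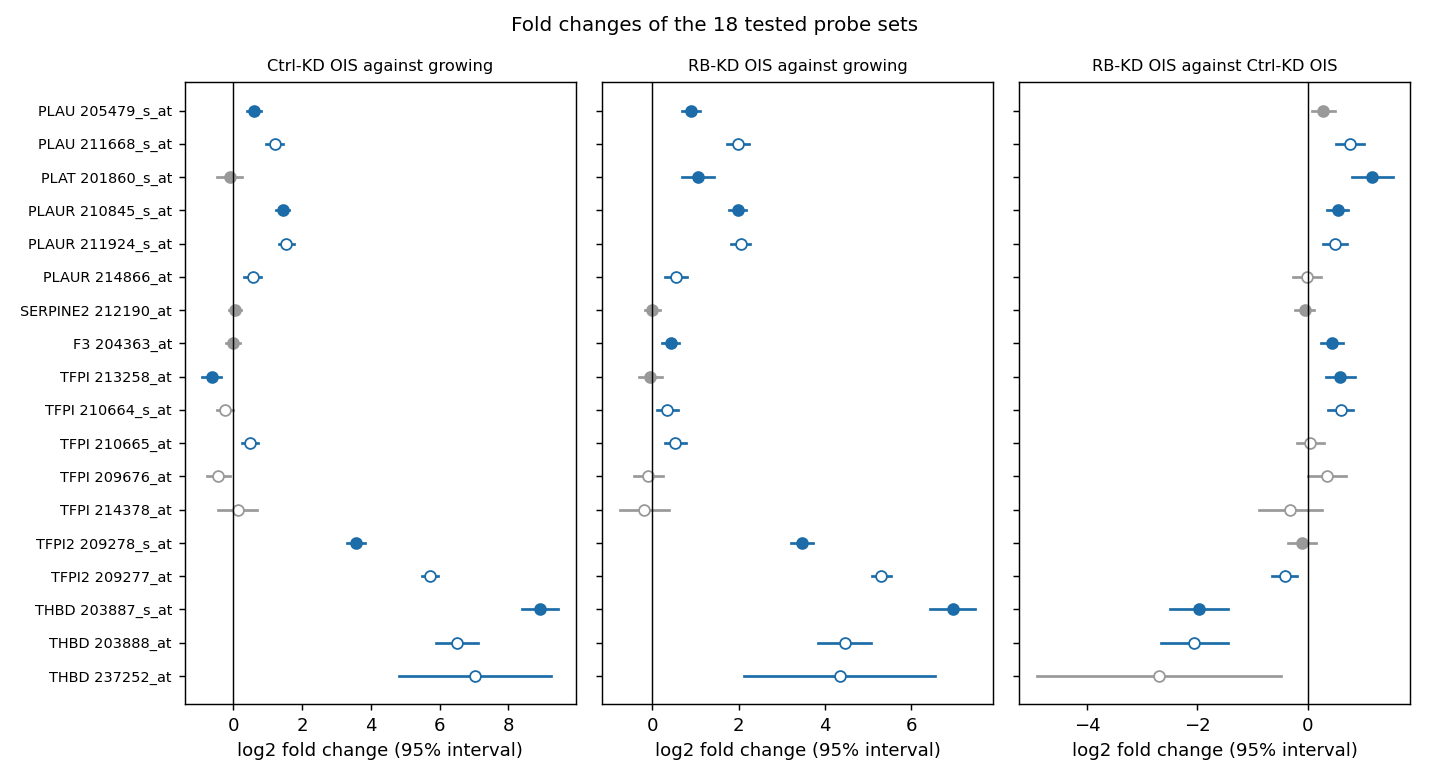
Log2 fold change with its 95% interval for the 18 tested probe sets in the 3 comparisons, on horizontal scales that differ by panel (filled circles are the brightest probe set of a gene, open circles the others, blue passed and grey did not pass a BH-adjusted p of 0.05). Between the OIS states PLAT, at 1.17, and the THBD probe sets, at -1.96 to -2.70, lie farthest from 0, and THBD fold changes against growing cells start from signals under the array median.

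Other genes of the pathway moved in both directions. From 6 lists with 56 genes, 34 were tested, of which 9 were higher and 8 lower in Ctrl-KD OIS than growing cells, 5 higher and 8 lower in RB-KD OIS than growing cells, and 4 higher and 7 lower in RB-KD OIS than Ctrl-KD OIS cells. These are 26.5% and 23.5%, 14.7% and 23.5%, and 11.8% and 20.6% of the 34, beside 19.9% and 20.7%, 18.0% and 18.4%, and 11.6% and 10.3% of all genes, and nothing particular to the lists is read from them. Their median log2 fold changes were 0.13, 0.15 and -0.17. With median centring these counts became 12 and 7, 9 and 6, and 4 and 6.

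Of 8 genes listed as plasminogen, its inhibitors and other protease inhibitors, 3 were tested, and plasminogen (PLG) was not among them. Against growing cells 2 were higher in Ctrl-KD OIS and 1 in RB-KD OIS cells, and 2 were lower between the OIS states. SERPINB8 gave 860.2 and 942.7 in growing, 2589 and 2844 in Ctrl-KD OIS and 1732 and 2076 in RB-KD OIS cells, with log2 fold changes of 1.59, 1.07 and -0.52 (BH-adjusted p = 9.45e-06, 0.000154 and 0.0181). SERPINI1, neuroserpin, an inhibitor of tissue-type plasminogen activator, gave 61.1 and 110.3 in growing, 346 and 266 in Ctrl-KD OIS and 126 and 117 in RB-KD OIS cells. It was higher in Ctrl-KD OIS than growing cells (1.89, BH-adjusted p = 0.00137) and lower in RB-KD OIS than Ctrl-KD OIS cells (-1.32, BH-adjusted p = 0.0207).

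Among partners of plasminogen and the urokinase receptor, 11 of 12 were tested, with 3 higher and 5 lower in Ctrl-KD OIS cells and 1 higher and 3 lower in RB-KD OIS cells against growing cells, and 2 higher and 3 lower between the OIS states. S100A10, which with annexin A2 forms a docking site for plasminogen and its activator at the cell surface, fell in both OIS states, from 22847 and 23776 in growing to 19211 and 18009 in Ctrl-KD OIS and 11938 and 10587.5 in RB-KD OIS cells (log2 -0.33 and -1.05 against growing cells, BH-adjusted p = 0.0153 and 2.06e-05, and -0.73 between the OIS states, BH-adjusted p = 0.000596). The first of these was not called with median centring. ANXA2, its partner, was not called in any comparison. LRP1, which takes up urokinase bound to its inhibitors, was lower in both OIS states, with log2 fold changes of -0.77 and -1.03 against growing cells (BH-adjusted p = 0.0246 and 0.00696), the former not with quantile normalization. The vitronectin receptor chain ITGB3 rose from 519 and 362 in growing to 1359 and 1636 in Ctrl-KD OIS and 932 and 1024 in RB-KD OIS cells (1.78 and 1.17, BH-adjusted p = 5.22e-05 and 0.00094). Its partner ITGAV was lower in Ctrl-KD OIS than growing cells (-0.58, BH-adjusted p = 0.00472) and higher in RB-KD OIS than Ctrl-KD OIS cells (0.81, BH-adjusted p = 0.00203).

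Coagulation factors themselves were mostly dim, with 6 of 16 tested and 0 called in Ctrl-KD OIS against growing cells by limma, also at an unadjusted p below 0.05. Several of the 6 had signals near the array medians, so a change in them could be missed. Shares of all genes below that unadjusted p were not counted, here or for the members. F10, factor X, was lower in RB-KD OIS than growing cells by at least 3.0-fold (BH-adjusted p = 0.00409 for the fitted change). Its signals were 146 and 136 in growing and 23.4 and 41.9 in RB-KD OIS cells, the latter under the array median. F8 was higher in RB-KD OIS than Ctrl-KD OIS cells (0.75, BH-adjusted p = 0.0473), though not with quantile normalization.

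The list of anticoagulant proteins, in which GAS6 stands as a relative of protein S, held the largest changes of the 6 lists against growing cells. Of its 10 genes 6 were tested, with 2 higher and 1 lower in Ctrl-KD OIS, 2 and 2 in RB-KD OIS, and 1 and 1 between the OIS states. SERPIND1, heparin cofactor II, an inhibitor of thrombin, gave 58.9 and 53.4 in growing, 1061 and 1149 in Ctrl-KD OIS and 2758 and 2759 in RB-KD OIS cells. Its log2 fold changes were 4.30 and 5.62 against growing cells (BH-adjusted p = 4.95e-08 and 9.8e-09) and 1.32 between the OIS states (BH-adjusted p = 0.000284). The growing signals were close to the medians of their arrays (51.8 and 49.5), so the sizes of the changes against growing cells are uncertain. PROCR, the endothelial protein C receptor, which works with thrombomodulin, gave 1373 and 1745 in growing, 4632 and 4212 in Ctrl-KD OIS and 2006 and 2147 in RB-KD OIS cells. PROCR was highest in Ctrl-KD OIS cells, with 1.51 and 0.42 against growing cells (BH-adjusted p = 1.59e-05 and 0.0297) and -1.09 between the OIS states (BH-adjusted p = 0.000525). THBD had the same order of states, and so did SERPINB8, SERPINI1, ITGB3 and GGCX among others of the lists. GAS6, a vitamin K-dependent ligand related to protein S, fell from 17290.0 and 17687 in growing to 1937 and 2219 in Ctrl-KD OIS and 2403 and 2047 in RB-KD OIS cells (-3.08 and -2.98, BH-adjusted p = 9.05e-08 and 1.32e-07).

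Of 4 protease-activated receptors, 2 were tested, and F2RL2, the receptor PAR3, was lower in both OIS states, with log2 fold changes of -1.90 and -2.23 against growing cells (BH-adjusted p = 4.61e-06 and 2.4e-06). All 6 genes of clotting factor processing were tested, with 2 higher and 1 lower, 1 and 1, and 0 and 1 in the 3 comparisons. GGCX, the enzyme that carboxylates vitamin K-dependent factors, gave 953.5 and 917 in growing, 2273 and 2054 in Ctrl-KD OIS and 1251 and 1422 in RB-KD OIS cells, with 1.21, 0.51 and -0.70 on the log2 scale (BH-adjusted p = 3.56e-05, 0.00763 and 0.00323).

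**Figure D4:**
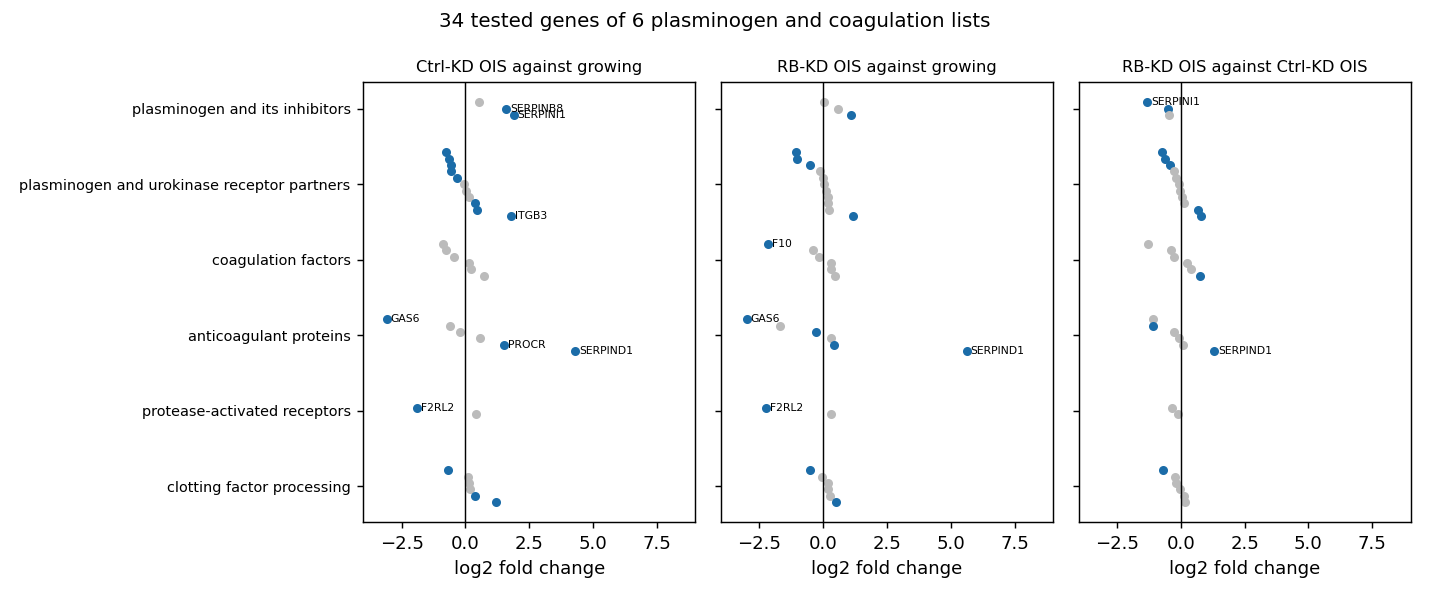
Log2 fold change of the 34 tested genes of 6 lists in the 3 comparisons (1 point per gene by its brightest probe set, blue passed and grey did not pass a BH-adjusted p of 0.05, with names beside the larger called changes). SERPIND1, at 4.30 and 5.62, and GAS6, at -3.08 and -2.98, stand farthest from 0 against growing cells. The SERPIND1 changes start from growing signals close to the array median.

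The genes whose 6-array profiles lay nearest to each member were found among 13390 other genes, by the Euclidean distance between log2 signals taken relative to the growing arrays, as a description with no test. For PLAU these were UTP25 (distance 0.0975), MED31 (0.168) and CLEC2B (0.171), and for PLAUR they were TNFRSF1B (0.268), SLC2A13 (0.303) and B3GNT5 (0.309). PLAT lay nearest to WDR81 (0.102), KLF11 (0.349) and USP18 (0.358), and F3 to ZC3HAV1L (0.102), UBE2E3 (0.112) and DNAJB11 (0.124). TFPI, by its brightest probe set, lay nearest to MAP1LC3A (0.152), BLTP3A (0.164) and SRD5A1 (0.177). TFPI2 lay nearest to TNFAIP6 (0.279), NAMPT (0.419) and CCR1 (0.555), the last with growing signals under the array median. The neighbours of PLAU and TFPI2 follow their brightest probe sets, whose OIS signals were over 30000. The other probe sets of these genes changed more against growing cells. For THBD no neighbours are given, since its growing signals, from which the distance is taken, were under the array median.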

How the data were processed

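The deposited table holds signal intensities that the authors computed as MAS5 signals in Affymetrix Expression Console, on a linear scale, from Affymetrix U133 Plus 2.0 arrays of 6 samples (2 per state, from independent experiments). The versions are not given in the sources used here, and no detection calls come with the signals. Of its 54613 probe sets, 41091 name 1 gene, 1801 name several and 11721 are unnamed in the platform table, which can be old.

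Analysis was on log2 signals without an offset. The 30139 probe sets over the array median on at least 2 of 6 arrays were fitted with limma 3.58.1 in R 4.3.3 (a mean per state over all 6 arrays, a prior variance following the signal), with Benjamini-Hochberg adjustment over all of them and a threshold of 0.05. Of the probe sets naming a gene and no other, the brightest stood for it, giving 13398 tested genes. A probe set under the median on all arrays of a state has a bound there, set by that median. The p-value beside a bound is that of the fitted change. The fit was also run on simulated data with 200 probe sets changed, fewer than were called here. No result here rests on that run. With 2 arrays per state, an exact two-sided permutation test of a single value cannot go below 0.333, and array number limits the precision.

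The named genes were all members, up to 4 called genes per list by largest fold change, and the 3 genes nearest to each called member; the text prints some of them. Members, lists and rules were chosen with earlier results of these data known. ANXA2, PLG and the markers are named outside that rule. The platform table names a probe set's gene, and the promoters came from RefSeq (GRCh38.p14). Results were recomputed with median centring, quantile normalization, an offset of 16, no filter, a filter at percentile 70, no intensity trend, a fit of only the 2 compared states, a table of brightest probe sets, probe sets averaged by gene, a block for replicate number, and without each array in turn.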

Additional observations from a re-analysis of the deposited data

How the results depend on the processing

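Of the 36 called fold changes of member probe sets, 492 of 520 alternative values kept the call, 28 missed the threshold and 0 changed sign. Over all 777 alternative values of member probe sets, 716 kept direction and side of the threshold, 28 fell short of it, 14 newly passed and 19 changed sign. Each change of sign was of a difference that did not pass. With quantile normalization SERPINE2 went to -0.038 (Ctrl-KD OIS) and -0.097 (RB-KD OIS) against growing cells, and PLAUR 214866_at to 0.0014 between the OIS states. With median centring F3 went to 0.076 in Ctrl-KD OIS against growing cells, TFPI 213258_at and 209676_at to 0.068 and 0.021 for RB-KD OIS against growing cells, and PLAUR 214866_at to 0.010 between the OIS states.

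With each array left out in turn, Ctrl-KD OIS against growing cells ranged from -0.11 to 0.075 for F3, -0.39 to 0.17 for PLAT and -0.10 to 0.37 for TFPI 214378_at. RB-KD OIS against growing cells ranged from -0.044 to 0.045 for SERPINE2, -0.21 to 0.036 for TFPI 209676_at, -0.22 to 0.14 for TFPI 213258_at and -0.42 to 0.050 for TFPI 214378_at. Between the OIS states the range was -0.13 to 0.11 for PLAUR 214866_at and -0.038 to 0.13 for TFPI 210665_at. Leaving out RB-KD OIS replicate 2 ended the call on THBD 237252_at in RB-KD OIS against growing cells, as did a prior without the intensity trend.

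The count of genes lower in Ctrl-KD OIS than growing cells was 0 with no intensity trend and when a gene's probe sets were averaged, and 1 to 2 with an array left out. The count of genes higher in RB-KD OIS than Ctrl-KD OIS cells was 0 with no intensity trend and 2 to 5 with an array left out, and that against growing cells 5 to 6. The causes were not tested.

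Among all genes, no intensity trend left 464 higher and 187 lower between the OIS states (1558 and 1380 with the trend) and, against growing cells, 1751 higher in Ctrl-KD OIS and 1492 higher in RB-KD OIS cells (2667 and 2417 with it). The mean of all probe sets gave 1739 and 1476 there, of 10770 rather than 13398 genes tested, and leaving out growing replicate 1 gave 1516 lower in RB-KD OIS than growing cells (2471 with it). With median centring RB-KD OIS against growing cells split into 2963 higher and 1901 lower (2417 and 2471 without it), and the median log2 fold change of all genes went from -0.02 to 0.10.

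Whether replicate numbers mark shared experiments is not stated. The differences between replicates of 1 state correlated at r = 0.01, -0.01 and 0.04 with those of another over 30139 probe sets. With 1 such difference per state, these values cannot decide whether the samples are paired. A replicate block left the member counts at 4 higher and 1 lower, 6 and 0, and 4 and 1, and it brought TFPI 209676_at in Ctrl-KD OIS against growing cells (adjusted p = 0.0246) and THBD 237252_at between the OIS states (adjusted p = 0.0393) past the threshold. Among all genes between the OIS states the block gave 1700 higher and 1515 lower (1558 and 1380 without it). Signals over 30000 limit what PLAU and TFPI2 can show, and signals under the array median limit THBD in growing cells.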
